A study of Homo sapiens with 6 samples.

Results

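The S100 proteins and the annexins are the calcium-binding gene families whose symbols begin with S100 and ANXA. Members were chosen by symbol alone, S100A with a number, S100B, S100G, S100P and S100Z together with ANXA and a number, with no threshold on a measured value. They were 31 of the 25369 genes in the files, 19 S100 genes and 12 annexin genes. Of these, 18 (8 S100 and 10 annexin genes) reached 10 normalized counts in 3 samples or more and were tested, and the other 13 are described by their read numbers.

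RNA-Seq of Caki2, a clear cell renal cell carcinoma (ccRCC) line without PBRM1 protein, was compared between cells with an empty doxycycline-inducible lentiviral vector (Caki2+Vector) and cells with the same vector carrying PBRM1 (Caki2+PBRM1), with 3 biological replicates (A, B and C) of each. Both lines were selected as stable lines and both received 2 µg/mL doxycycline, over a minimum of 72 h by the study's methods, so doxycycline and viral infection were shared by the groups. Whether each line was 1 clone or a pool was not given in the sources used here, and each genotype was 1 line, so a property of a line and the presence of PBRM1 cannot be told apart. PBRM1 is a bromodomain subunit of the PBAF chromatin remodeling complex, and the comparison asks which transcripts change when it is restored.

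The depth was 7312955 to 10835355 reads on genes, and a normalized count is the number of reads divided by a size factor of 0.834 to 1.19 for its sample. PBRM1 itself was at 195, 182 and 182 normalized counts in the Caki2+Vector samples and at 2432, 2521 and 2682 in the Caki2+PBRM1 samples, a 13.6-fold difference (log2 fold change 3.76, SE 0.056, limma adjusted p = 3.3e-29), so transcripts of the gene were also present in the control line, which makes no protein. Of the renal epithelial markers all 7 were tested, with a summed level of 15986 to 17061 without PBRM1 and 14413 to 15098 with it. PAX8 was at 2072 and 2094 on average, CDH16 was upregulated (0.40) and KRT8 and KRT18 were downregulated (-0.18 and -0.34). PAX8, PAX2, KRT19 and EPCAM did not pass, so the markers did not move together. The part of these marker changes in the S100 and annexin values was not tested. Keratinocyte markers summed to 0 to 1.8 and endothelial markers to 0.9 to 6.2 in every sample, and CD3E was at 0. Among 5 blood markers ITGAM alone was tested (179.9 to 228.6 for the sum), PMEL alone of 4 melanocyte and glial markers (sum 49.5 to 66.1), and COL1A1 and PDGFRA of 3 fibroblast markers (sum 78.1 to 104). Caki2+Vector A stood apart from the other replicates, with a chi-square per degree of freedom of 3.09 and 2.84 against B and C, where the other 4 pairs of replicates lay between 1.19 and 1.34. Results that it moved by a large factor are given with and without it.

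S100 proteins are small EF-hand proteins that mostly form dimers, open a hydrophobic face on binding calcium and then bind a target. Annexins are larger proteins that bind negatively charged phospholipids when calcium rises and so bring membranes, actin and S100 dimers together. The families meet in stable complexes, of which the tetramer of S100A10 and ANXA2 is the best known, and in kidney tubule cells they take part in membrane traffic, membrane repair, cell motility and the activation of plasminogen at the cell surface.

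S100 and annexin transcripts ranged from undetected to 13105 normalized counts, and 13 of the 18 tested members did not pass the test upon PBRM1 re-expression. S100A4, S100A11 and ANXA5 were upregulated and ANXA4 and ANXA7 were downregulated, at an adjusted p under 0.05 (limma, Benjamini-Hochberg over all tested genes), which made 5 of 18 members. Over all 13303 tested genes the share called was 29.2% (16.2% higher and 13% lower in Caki2+PBRM1), and among the 7619 genes with a mean of at least 200 normalized counts it was 35.1%, so 27.8% of members was near the background. On whole reads recovered from the files, edgeR and DESeq2 each called the same 5 members, beside 30.3% and 19.2% of all genes. By family, 2 of 8 S100 genes passed, both higher, and 3 of 10 annexins passed, 1 higher and 2 lower. The median log2 fold change was 0.028 for S100 genes and 0.014 for annexins, against -0.004 for all genes, and both family medians turned negative under quantile normalization (-0.007 and -0.027). Without regard to sign, the median log2 fold change was 0.11 for S100 genes, 0.058 for annexins and 0.14 for all genes. In bulk RNA, fewer cells with a transcript and less of the transcript per cell cannot be told apart.

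**Figure D1:**
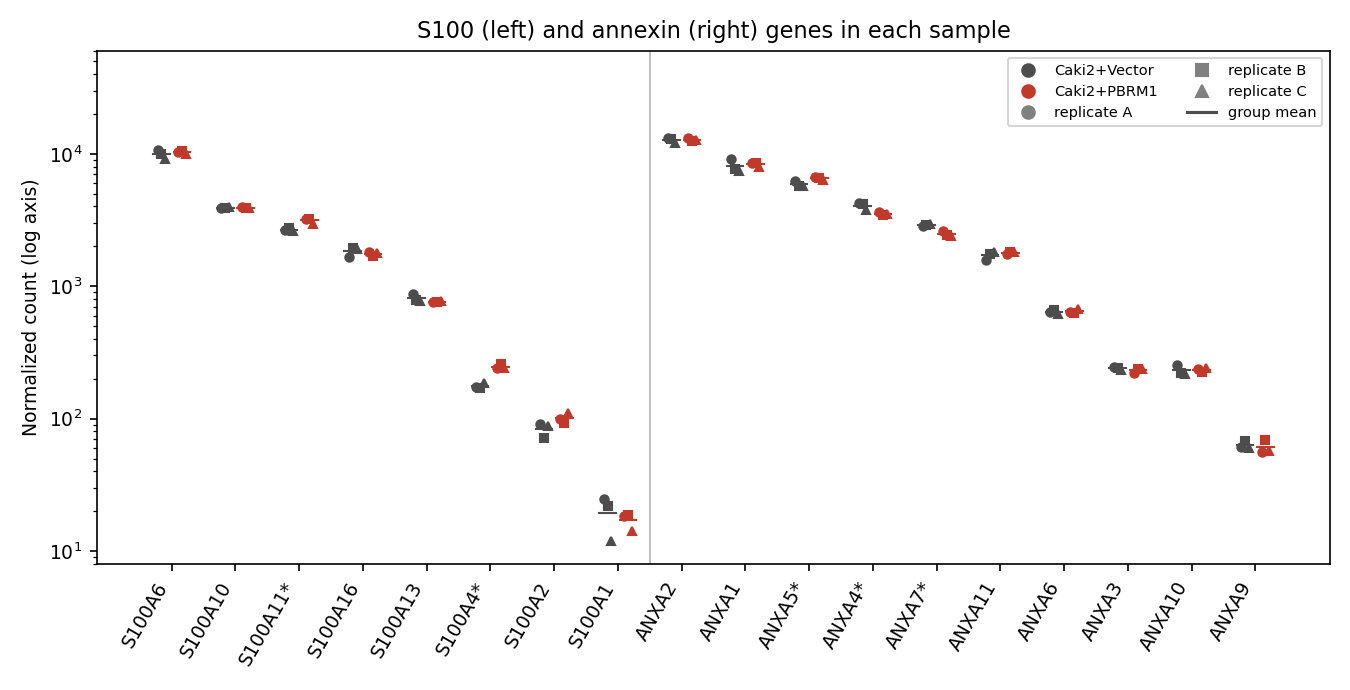
Normalized count (log axis) of each tested S100 gene (left) and annexin gene (right) in every sample, with Caki2+Vector in grey, Caki2+PBRM1 in red, replicates by symbol and the group mean as a line. Members span S100A1 at about 10 to 25 counts to ANXA2 at 11992 to 13105, and the groups of the 5 genes with an asterisk (adjusted p under 0.05) do not overlap.

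**Figure D2:**
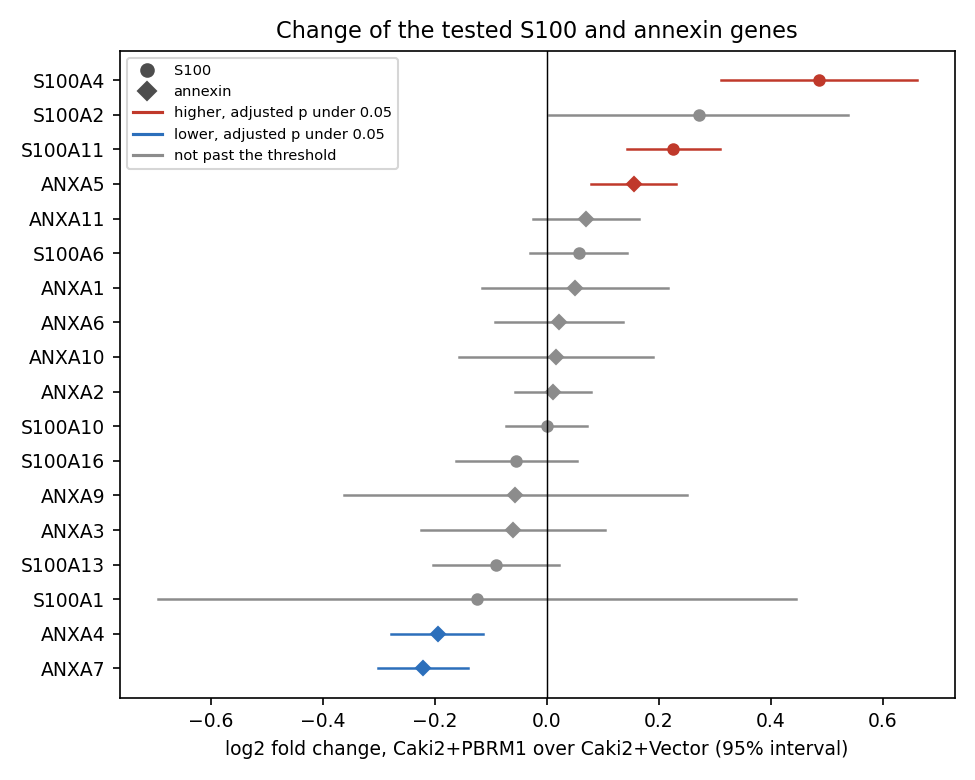
log2 fold change of each tested member with its 95% interval from limma, circles for S100 genes and diamonds for annexins. Red marks the 3 upregulated and blue the 2 downregulated members, and S100A4 at 0.49 is the highest value while ANXA7 at -0.22 is the lowest.

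S100A4 (metastasin), which binds nonmuscle myosin IIA and promotes cell motility, had the largest change of the members that passed. Its normalized counts were 174, 170.1 and 185 in Caki2+Vector samples A, B and C and 243, 258 and 242 in Caki2+PBRM1 A, B and C. Every Caki2+PBRM1 sample lay above every Caki2+Vector sample, without overlap. The mean rose 1.40-fold, from 176 ± 7.48 to 247 ± 9.01 (SD, n = 3), with a log2 fold change of 0.49 (SE 0.085, 95% interval 0.31 to 0.66, limma adjusted p = 5.4e-05). Over 16 alternative fits it lay between 0.46 and 0.52 and the highest adjusted p was 0.0014. S100A4 lies at chr1:153516089-153522612 on the minus strand of GRCh37, a span that also holds the weakly expressed S100A3 on the same strand (5 to 8 reads per sample), so some of those reads could be shared. The sum of both genes was 183 ± 9.5 and 253 ± 10.4.

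The S100 genes are clustered in the genome, 15 of 19 on chromosome 1, including all 8 tested ones, which allowed the rise of S100A4 to be set against that of its neighbours. Within 500 kb of S100A4, 19 genes were tested, 6 of them members. With all 6 samples S100A4 was the only one of the 19 called higher, and the 3 called lower were not S100 genes (ILF2 -0.20, INTS3 -0.22 and SLC39A1 -0.11, limma adjusted p = 0.00033, 0.0013 and 0.049). Over all tested genes the shares were 16.2% higher and 13% lower. S100A6, with its midpoint 11.5 kb away, had a log2 fold change of 0.057 (95% interval -0.030 to 0.14), and the interval of S100A2, 17.6 kb away on the other side, ran from 0.005 to 0.54. The median of the 19 genes was 0.032.

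**Figure D3:**
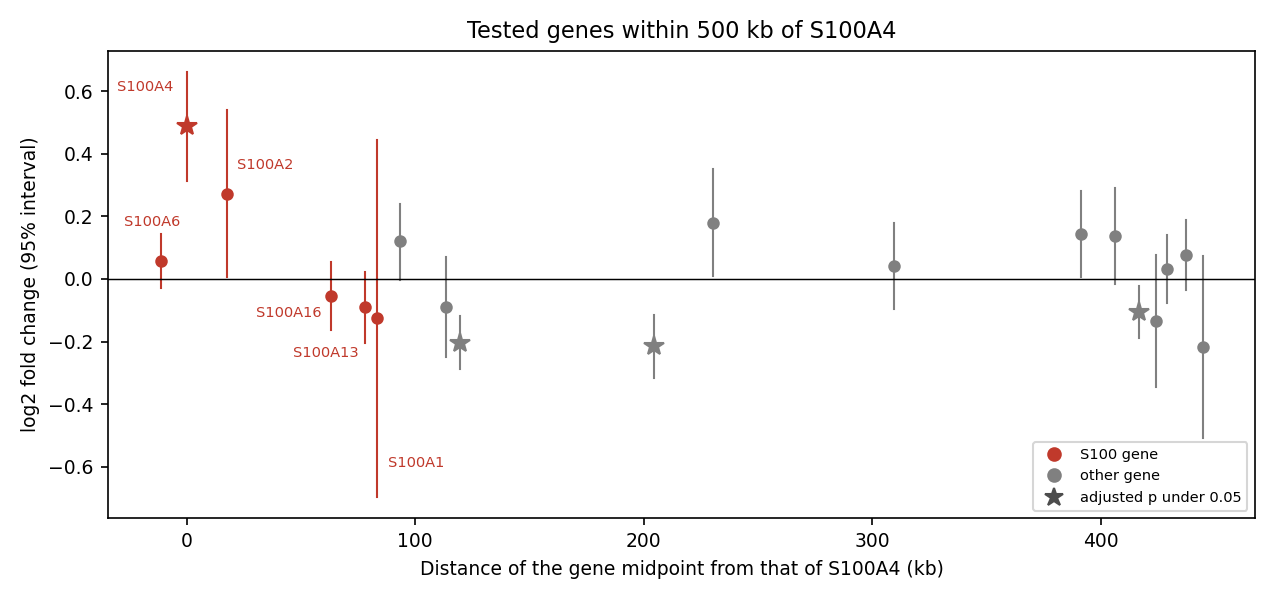
log2 fold change with its 95% interval for the 19 tested genes within 500 kb of S100A4, by the distance of each gene's midpoint from that of S100A4 in kb, with S100 genes in red and a star for an adjusted p under 0.05. S100A4 at 0 kb stands at 0.49, S100A6 and S100A2 beside it at 0.057 and 0.27, and the starred genes below the line are ILF2, INTS3 and SLC39A1.

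S100A11 (calgizzarin), a binding partner of ANXA1 and ANXA2 with a role in membrane repair and in growth control, was the other S100 gene upregulated. The 3 Caki2+Vector samples had 2660.2, 2763 and 2616 normalized counts, the 3 Caki2+PBRM1 samples had 3239.8, 3194 and 2975, and the groups did not overlap. The mean rose 1.17-fold, from 2680.03 ± 75.5 to 3136 ± 141 (SD, n = 3), with a log2 fold change of 0.23 (SE 0.040, 95% interval 0.14 to 0.31, limma adjusted p = 7.2e-05), and all 16 alternative fits gave 0.19 to 0.26 with an adjusted p of at most 0.0042. The gene is at chr1:152004982-152020383 (GRCh37, minus strand).

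S100A10 (p11) has lost calcium binding, is held in a tetramer by ANXA2 and presents plasminogen to its activators. Normalized counts of S100A10 were 3915, 3903 and 3958 with the empty vector and 3981, 3884 and 3908 upon PBRM1 re-expression. The groups overlapped and the log2 fold change was 0.000 with a 95% interval of -0.073 to 0.072 (limma adjusted p = 1), one of the narrowest intervals among the members. ANXA2, which carries this complex to the membrane and to actin, was at 13105, 12836 and 11992 with the empty vector and at 13054, 12519 and 12639 with PBRM1. For ANXA2 the log2 fold change was 0.011 (95% interval -0.057 to 0.080, limma adjusted p = 0.83) and reversed to -0.10 (adjusted p = 0.024) under quantile normalization. Without Caki2+Vector A the value of ANXA2 was 0.038 (limma adjusted p = 0.26). The genes lie at chr1:151955391-151966335 and chr15:60639333-60695082 of GRCh37, both on the minus strand.

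The value of ANXA2 depends on how reads were divided with its processed pseudogene ANXA2P2, an intronless copy on the plus strand of chromosome 9, whose values made up 38.7% to 42% of their sum. The 1020 bases of ANXA2P2 were 98.4% identical to the ANXA2 transcript, with 16 differences. Of the ANXA2P2 windows of 100 bases, the read length, 31.2% occurred unchanged in ANXA2, and 19.7% of ANXA2 windows occurred unchanged in ANXA2P2. A window stands for a single read, and the share for paired reads was not computed. Exon 4 of the canonical ANXA2 transcript is shown because it holds 5 of the 16 differences, so reads across it can tell the copies apart. Exon 11, not shown, also holds 5, in 59 bases, whereas the 114 bases of exon 5 had 0 differences. Capitals mark the bases of exon 4 that differ, T30G, A42G, G43A, C67T and G72T, with the ANXA2 base first and positions counted from 1 at the 5′ end of exon 4 in GRCh37.

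ANXA2 exon 4, chr15:60656628-60656722, minus strand: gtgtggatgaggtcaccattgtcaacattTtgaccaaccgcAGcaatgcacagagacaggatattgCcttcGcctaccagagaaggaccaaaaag
ANXA2P2, chr9:33624420-33624514, plus strand: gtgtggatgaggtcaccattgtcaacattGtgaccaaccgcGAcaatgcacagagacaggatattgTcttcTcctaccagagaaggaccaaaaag

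ANXA2P2 had a mean of 8422 ± 959 normalized counts with the empty vector and of 8360 ± 302 with PBRM1 (SD, n = 3). The sum of both genes was 21066 ± 1478 and 21097 ± 398, a log2 ratio of 0.004 (exact permutation test, two-sided p = 1). How reads that fit both copies were treated was not given in the sources used here, so the division between them is uncertain.

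S100A6 (calcyclin), a regulator of the cytoskeleton and of ubiquitin ligase adaptors, had 10664, 9884 and 9149.8 normalized counts in the Caki2+Vector samples and 10378, 10425 and 10035 in the Caki2+PBRM1 samples. Caki2+Vector A was the highest of all 6 samples and C the lowest, and the groups overlapped. The log2 fold change was 0.057 (SE 0.042, limma adjusted p = 0.33), and without Caki2+Vector A it was 0.11 with an adjusted p of 0.00047. S100A16, a widely expressed member, showed the opposite picture, with 1648, 1954 and 1903 against 1813, 1693 and 1783.5 in the same order, a log2 fold change of -0.054 (adjusted p = 0.48 by limma) and, without Caki2+Vector A, of -0.13 with an adjusted p of 0.0062.

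The other tested S100 genes did not pass. S100A2, a p53-binding protein, gave 90.9, 70.9 and 88.7 normalized counts with the empty vector and 98.6, 93.3 and 109.95 with PBRM1. Its groups did not overlap, yet the adjusted p was 0.12 in limma (log2 fold change 0.27, SE 0.13) and stayed between 0.058 and 0.43 over the 16 alternatives. S100A13, which takes part in the release of FGF1, gave 879, 788 and 775 with the empty vector and 760.4, 759.95 and 770.5 with PBRM1, again without overlap and again not past the threshold (-0.090, limma adjusted p = 0.23, and -0.034 with an adjusted p of 0.66 without Caki2+Vector A). In all, 7 of 18 members had groups without overlap, against 41.7% of all tested genes. S100A1, the heart and muscle form that overlaps S100A13 on the opposite strand, was near the detection limit with 11.99 to 24.6 normalized counts (-0.12, 95% interval -0.69 to 0.45, limma adjusted p = 0.78, and 0.067 without Caki2+Vector A), and the strand setting of the libraries was not given in the sources used here, so reads of the overlap could belong to either gene.

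ANXA5, the phosphatidylserine-binding annexin used as a stain for dying cells, was the only annexin called higher with all 6 samples. The Caki2+Vector samples stood at 6221, 5747 and 5670.4 normalized counts and the Caki2+PBRM1 samples at 6651, 6616 and 6369. No Caki2+PBRM1 sample fell below the highest Caki2+Vector sample, which was A. The mean went from 5879 ± 298 to 6545 ± 154 (SD, n = 3), 11.4% higher (log2 fold change 0.16, SE 0.037, limma adjusted p = 0.0017), and the log2 fold change was 0.20 without Caki2+Vector A and at least 0.13 over all 16 alternatives, where the highest adjusted p was 0.028. ANXA5 lies at chr4:122589101-122618150 (GRCh37, minus strand).

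ANXA7 (synexin), which promotes the fusion of membranes during secretion, had the largest fall. Normalized counts of 2859, 2878 and 2932 were found without PBRM1 and of 2594, 2445 and 2400.4 with it. All Caki2+PBRM1 samples were below all Caki2+Vector samples. The mean fell by 14.2%, from 2889 ± 37.7 to 2479.9 ± 101 (SD, n = 3), for a log2 fold change of -0.22 (SE 0.040, 95% interval -0.30 to -0.14, limma adjusted p = 7.6e-05). The gene is at chr10:75134859-75173834 (GRCh37, minus strand).

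ANXA4, an annexin of secretory and tubular epithelia that orders membranes by self-association, was also downregulated. Caki2+Vector A, B and C gave 4214, 4169 and 3789 normalized counts, Caki2+PBRM1 A, B and C gave 3631, 3478 and 3511, and Caki2+Vector C came closest to the other group. The mean fell by 12.7%, from 4057 ± 234 to 3539.9 ± 80.4 (SD, n = 3, log2 fold change -0.20, SE 0.040, limma adjusted p = 0.00041). ANXA4 is at chr2:69871557-70054244 (GRCh37, plus strand). Across the 16 alternatives ANXA7 lay between -0.26 and -0.20 with an adjusted p of at most 0.0034, and ANXA4 between -0.24 and -0.17 with at most 0.0079.

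ANXA1 (lipocortin), a glucocorticoid-induced protein that restrains inflammation, had 9099, 7621 and 7420.3 normalized counts with the empty vector and 8501, 8447 and 7959 with PBRM1. Caki2+Vector A was the highest of the 6 samples, and its log2 value exceeded the mean of B and C by 0.28, a deviation above that of 92.8% of tested genes. With all samples the log2 fold change was 0.051 (SE 0.072, limma adjusted p = 0.66), and without Caki2+Vector A it was 0.14 with an adjusted p of 1.6e-05. ANXA11, a tether between RNA granules and lysosomes that binds S100A6, had 1588, 1737 and 1817 without PBRM1 and 1761, 1818 and 1811 with it (0.070, limma adjusted p = 0.28, and 0.016 with an adjusted p of 0.79 without Caki2+Vector A). The remaining tested annexins, ANXA3, ANXA6, ANXA9 and ANXA10, had group means of 60.9 to 647 normalized counts and log2 fold changes of -0.060 to 0.022, none past the threshold, with adjusted p of 0.62 to 0.91, and without Caki2+Vector A ANXA10 went from 0.016 to 0.083 (adjusted p = 0.52 by limma).

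Leaving out Caki2+Vector A added ANXA1 and S100A6 to the members called higher and S100A16 to those called lower, and the 5 members called with all samples were called there too. That made 8 of 18 members called, while over all genes the count went from 3886 of 13303 to 4170 of 13303. With 2 Caki2+Vector samples left, the spread of that group rests on fewer values.

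**Figure D4:**
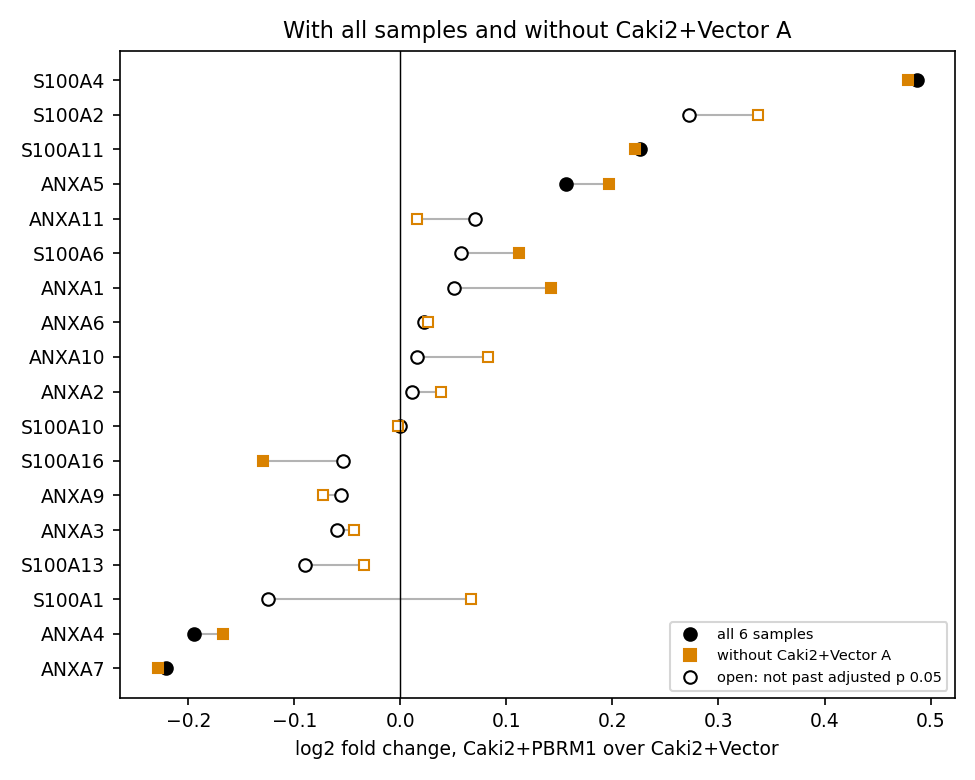
log2 fold change of the tested members with all 6 samples (black circles) and without Caki2+Vector A (orange squares), filled where the adjusted p is under 0.05. ANXA1 moves from 0.051 to 0.14, S100A6 from 0.057 to 0.11 and S100A16 from -0.054 to -0.13, and these 3 change from open to filled.

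As the proteins work in pairs, the ratio of S100 to annexin normalized counts was taken within each sample, where the size factor cancels. The ratio was not corrected for transcript length, so it does not give the proportion of transcripts. For S100A10 over ANXA2 it was 0.299, 0.304 and 0.330 without PBRM1 and 0.305, 0.310 and 0.309 with it, with overlapping groups (log2 difference -0.012, exact permutation test, two-sided p = 1). This log2 difference was -0.04 without Caki2+Vector A and 0.032 without Caki2+Vector C. The ratio of S100A11 to ANXA2 was 0.212 ± 0.0081 and 0.246 ± 0.010 (SD, n = 3), and that of S100A4 to ANXA2 was 0.0140 ± 0.0012 and 0.0194 ± 0.0010 (SD, n = 3), with every Caki2+PBRM1 sample above every Caki2+Vector sample in both. These log2 differences of 0.21 and 0.48 had p = 0.1 in the exact permutation test, the smallest that 3 against 3 samples allow. The exact permutation p adjusted over the 6 pairs compared was 0.2, so none could pass 0.05. As ANXA2 itself had a log2 fold change of 0.011, both ratios largely repeat the changes of S100A11 and S100A4 (0.23 and 0.49). They are not separate evidence.

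The ratio of S100A11 to ANXA1 was 0.292, 0.363 and 0.353 in the Caki2+Vector samples and 0.381, 0.378 and 0.374 in the Caki2+PBRM1 samples. Its groups did not overlap either (exact permutation p = 0.1), but the log2 difference of 0.18 dropped to 0.079 without Caki2+Vector A. S100A6 over ANXA2 (0.782 and 0.807 on average, exact permutation p = 0.3) and S100A6 over ANXA11 (5.81 and 5.72, exact permutation p = 0.9) overlapped between the groups, and the latter went from -0.013 on the log2 scale to 0.096 without Caki2+Vector A and to -0.112 without Caki2+Vector C.

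**Figure D5:**
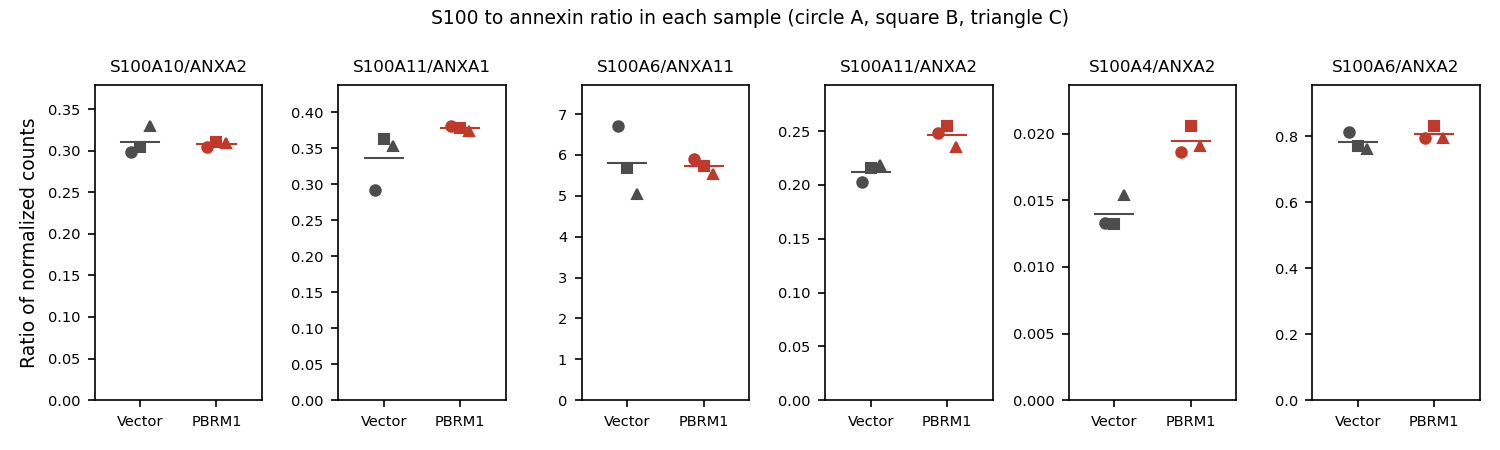
Ratio of the normalized count of an S100 gene to that of an annexin in each sample, from 0 upward, for 6 pairs, with grey for Caki2+Vector, red for Caki2+PBRM1 and a line at the group mean. The groups are apart for S100A11/ANXA1, S100A11/ANXA2 and S100A4/ANXA2 and overlap for the other 3 pairs, and the low Caki2+Vector point of S100A11/ANXA1 is replicate A at 0.292.

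The members were expressed at very different levels. Per kb of canonical transcript, S100A6 had the highest level, a mean of 23248 normalized counts per kb over the 6 samples, followed by ANXA2 with 8166.5, S100A10 with 5849, ANXA1 with 5835 and S100A11 with 5165. The levels of S100A10 and ANXA1 differed by less than the SD of ANXA1 in either group. When the length of all annotated exons was used in place of 1 transcript, S100A6 was still first, and S100A11, S100A10 and ANXA5 came next, so the order below S100A6 depends on the gene model. Summed over all members, S100 genes took 0.213% to 0.231% and annexins 0.395% to 0.44% of the counts in a sample, and the groups overlapped in both sums (exact permutation p = 0.2 and 0.9).

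The 13 members under the filter include the S100 genes of other cell types. S100A9 and S100A12, which neutrophils use with S100A8, the glial S100B, the calbindin S100G and S100Z had 0 of 55303036 reads, which allows up to 3 reads of that total for each, by counting error only. S100A7 (psoriasin) and S100A8 had 1 read each. S100P had 0 to 3 reads per sample, S100A14 2 to 6, S100A3 5 to 8 and S100A5 1 to 7, and all of these overlapped between the groups. ANXA8 had 6 to 15 reads and is uncertain besides, since ANXA8L1 is a near copy.

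ANXA13, an annexin of intestinal and renal epithelium, differed from the others under the filter. It had 5, 1 and 0 reads in Caki2+Vector A, B and C and 5, 11 and 9 in Caki2+PBRM1 A, B and C. The ratio of summed reads, corrected for the size factors, was 3.79 with a counting interval of 1.52 to 11.3. This interval leaves out the spread between replicates. By normalized count the groups did not overlap, though Caki2+Vector A and Caki2+PBRM1 A, with 5 reads each, differed only by size factor (4.73 and 5.42). Without the filter, limma gave a log2 fold change of 1.91 with an adjusted p of 0.0029. At so few reads both this difference and its size are uncertain.

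The sequences before the start sites of S100A4, ANXA7 and ANXA4 are shown because they belong to the members with the largest rise and the largest falls. RefSeq promoters (GRCh38.p14) from 250 bases before to 50 after the start were found for 28 of 31 members, in 39 windows. Both strands were searched for TGANTCA (AP-1), TATAAA (the TATA box) and ACGTG (the core of the hypoxia response element). TATAAA was present in 14 of 39 member windows against 11.5% of all 35116 promoters, TGANTCA in 5 of 39 against 7.71%, and ACGTG in 6 of 39 against 21.4%, and related windows of 1 gene can share a match. Among the 26 windows of tested members, 6 held TATAAA, 2 TGANTCA and 5 ACGTG, and the other windows with a match belong to members under the filter. The 250 bases before each start follow in lower case, 5′ to 3′ on the gene's strand, with the matches in capitals, TATAAA in S100A4 and overlapping matches to ACGTG on both strands in the second start of ANXA4. For ANXA4 only this second start is shown, and the first start, which had no match, is left out.

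S100A4, chr1:153545807-153546056, minus strand: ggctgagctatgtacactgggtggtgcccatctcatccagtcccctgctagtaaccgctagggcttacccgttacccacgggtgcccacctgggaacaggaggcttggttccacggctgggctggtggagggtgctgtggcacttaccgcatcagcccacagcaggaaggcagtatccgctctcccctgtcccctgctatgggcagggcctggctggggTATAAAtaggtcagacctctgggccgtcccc
ANXA7, chr10:73414059-73414308, minus strand: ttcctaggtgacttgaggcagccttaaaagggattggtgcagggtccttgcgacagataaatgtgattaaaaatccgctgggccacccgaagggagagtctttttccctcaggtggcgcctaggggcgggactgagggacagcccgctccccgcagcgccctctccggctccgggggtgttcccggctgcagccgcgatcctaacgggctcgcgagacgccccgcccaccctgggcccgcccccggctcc
ANXA4, second start, chr2:69741884-69742133, plus strand: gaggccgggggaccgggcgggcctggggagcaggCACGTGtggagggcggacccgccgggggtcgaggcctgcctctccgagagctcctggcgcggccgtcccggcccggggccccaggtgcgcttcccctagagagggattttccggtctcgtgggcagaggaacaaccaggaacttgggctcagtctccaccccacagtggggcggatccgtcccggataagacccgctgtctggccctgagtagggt

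The TATAAA of S100A4 began 31 bases before the start, and none of the searched letters occurred in the windows of ANXA7, S100A11, ANXA5 or the first start of ANXA4. A match is a description of letters and was not tested for binding. The windows of tested members had a median of 62.7% G and C and 12 CpG, those of members under the filter 54.7% and 4, and all promoters 58.7% and 14.

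Of the other genes of the system, 55 in 8 lists were tested, and 22 were called (12 higher and 10 lower). That was 40% of the tested list genes, beside 29.2% of all genes and 35.1% of genes with a mean of at least 200 normalized counts. With DESeq2 on the recovered reads 5 of the 22 did not pass (EHD1, PLA2G4A, CALB2, RCN2 and SDF4). In plasminogen activation, to which the S100A10 and ANXA2 complex belongs, PLAU rose. This urokinase, which cleaves plasminogen, was at 50.2, 72.8 and 68.3 normalized counts without PBRM1 and at 109, 129.8 and 136 with it, so that the groups were far apart (log2 fold change 0.97, SE 0.14, limma adjusted p = 4e-06). PLAT, PLAUR and PLGRKT did not pass (0.21, -0.11 and -0.12), and PLG, the substrate, had 0 reads.

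Of 6 receptors of S100 proteins and annexins 3 were tested, and TLR4 and BSG rose (0.35 and 0.22, limma adjusted p = 0.0058 and 0.0011), whereas AGER, the receptor for advanced glycation end products, was at 31.0 and 25.7 normalized counts (-0.24, adjusted p = 0.44). In membrane repair 1 of 11 tested genes rose and 1 fell. EHD1, an ATPase of membrane recycling, rose by 0.20 with overlapping groups (limma adjusted p = 0.034). AHNAK, the giant scaffold bound by S100A10 and ANXA2, fell from 35507 ± 713 to 30595 ± 962 (SD, n = 3, log2 fold change -0.22, limma adjusted p = 6.5e-07), and its relative AHNAK2 did not pass (-0.072).

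Among intracellular partners of S100 proteins 2 of 10 rose and 3 fell. IQGAP1, a cytoskeletal scaffold, and PLA2G4A, a phospholipase bound by S100A10, rose (0.16 and 0.31, limma adjusted p = 0.00064 and 0.011). CACYBP and SUGT1, which bind S100A6, and the co-chaperone STIP1 fell (-0.21, -0.23 and -0.25, limma adjusted p = 0.00071, 0.0038 and 9.3e-06). MYH9, the myosin heavy chain bound by S100A4, was at 20606 ± 1390 and 21686 ± 357 (SD, n = 3) with a log2 fold change of 0.076 (limma adjusted p = 0.14). Of the 4 penta-EF-hand proteins that bind annexins, SRI (sorcin), a partner of ANXA7, fell by 0.29 on the log2 scale (limma adjusted p = 0.00041), with all Caki2+PBRM1 samples (555 to 605 normalized counts) below all Caki2+Vector samples (663 to 738), and PDCD6, GCA and PEF1 did not pass.

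Other EF-hand proteins moved in both directions. CALU (calumenin) of the secretory pathway was upregulated, with 3973 ± 112 normalized counts without and 5436 ± 52.4 with PBRM1 (SD, n = 3, log2 fold change 0.45, limma adjusted p = 2.8e-11). HPCAL1, SDF4 and NUCB1 rose too (0.40, 0.14 and 0.17), and CALM3, CALB2, CHP1 and RCN2 fell (-0.18, -0.47, -0.31 and -0.16), whereas CALM2 did not pass (-0.021, limma adjusted p = 0.74). Of the fused-type S100 genes, which join an S100 domain to long repeats, FLG (filaggrin) rose from 116 ± 10.6 to 159 ± 9.88 (SD, n = 3, 0.45, limma adjusted p = 0.0016), and HRNR and TCHH did not pass. Among relatives outside the symbol patterns, 2 of 8 were tested, ANXA2P2 and S100PBP, and none was called.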

How the data were processed

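Per the labels and the study's methods, poly(A) RNA was sequenced as paired reads of 100 bp from fragments of about 200 bp. The authors aligned reads to hg19 with STAR, counted them on genes with htseq-count and normalized them with DESeq2. Tool versions, the treatment of reads with several positions and the strand setting were not given in the sources used here. The deposited values are normalized counts, a signal equal to the number of reads divided by a size factor per sample, and 100% of values gave whole reads within 0.01. At 7312955 to 10835355 reads per sample log2 fold changes had a median SE of 0.083. p-values measure the spread between these 3 replicates of 1 line each.

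The 13303 genes that reached 10 normalized counts in 3 samples or more were tested on the scale log2(normalized count + 1) by limma 3.58.1 (trend and robust) in R 4.3.3, Benjamini-Hochberg adjusted over all of them, so fold changes of low genes are understated. On recovered reads, edgeR 4.0.16 called 4028 genes (30.3%) and DESeq2 1.42.0 called 2553 (19.2%). Sums and ratios were compared with a two-sided exact permutation test. The other alternatives were voom, the replicate letter as a block, other filters, pseudocounts of 0.5 and 4, quantile and TMM normalization, an adjusted p under 0.01 and leaving out each sample. Scripts were tested on simulated data.

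Coordinates and lengths are those of GENCODE (GRCh37), found by symbol for 84.9% of genes, and promoters from RefSeq (GRCh38.p14). Members and lists were chosen with earlier results of these data known. All members are accounted for, with values in every sample for those past the threshold, the 4 with the highest count per kb and those in pairs, and of other lists the called genes are named, except that some are not reported here. MYH9, AGER and the other genes named without a call were chosen after their values were seen, as were ANXA13, S100A2, S100A13 and S100A16 for their values in every sample. Protein data of the study were not analysed here.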

Additional observations from a re-analysis of the deposited data

How the results depend on the processing

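The calls of S100A4, S100A11, ANXA5, ANXA4 and ANXA7 held under every alternative fit tried. With the letters as a replicate block the counts remained 2 S100 genes higher and 0 lower and 1 annexin higher and 2 lower. In all, 4107 genes were called there. Same-letter samples correlated at -0.008 to 0.014, and 3 of 6 correlated best with their own letter. No clear pairing by letter was seen, and what the letters share was not given in the sources used here. Leaving out 1 sample at a time gave 2 to 3 S100 genes higher, 0 to 1 lower and 1 to 2 annexins higher, and median log2 fold changes of 0.004 to 0.09 for S100 genes and -0.026 to 0.031 for annexins. The extra calls came without Caki2+Vector A. Without the filter on low counts, 2 annexins were higher, the second being ANXA13. Quantile normalization gave medians of -0.007 for S100 genes and -0.027 for annexins and reversed ANXA2 to -0.101, while the median of all genes went from -0.004 to -0.025, and the cause was not tested. Over all genes, DESeq2 called 2553, an adjusted p under 0.01 called 2521 and the main test 3886. SEs of 0.033 (ANXA2) to 0.279 (S100A1) on the log2 scale limit what could be detected among the members.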
